A study of Mus musculus with 8 samples.

Results

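The genes described here are 8 enzymes of asparagine, proline and glutamate metabolism, of 50599 gene records in each library. They are Asns, Pycr1, Aldh18a1, Prodh, Glul, Got1, Got2 and Gpt2. They were listed by name by someone who had already seen how they differed between knockout and wildtype in these same libraries, so their fold changes are given as a description and without a test. RNA was sequenced from 8 whole hearts of 12-week-old male mice on the C57BL/6N background, 4 labelled wildtype and 4 labelled knockout. By the study's methods, both groups carried loxP sites in both copies of Lrpprc. The knockout also carried a Cre recombinase that removes the gene in heart and skeletal muscle only, and the promoter that drives it was not given in the sources used here. Heart cells in which Cre is not active keep the gene. Lrpprc encodes a protein that binds mitochondrial RNA.

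Glutamate, glutamine, aspartate and asparagine are linked by a few enzymes that move amino and amide groups between carbon skeletons. Asparagine synthetase makes asparagine from aspartate and glutamine. Proline is built from glutamate in the mitochondrion through pyrroline-5-carboxylate, and is broken down to glutamate again by the same route in reverse with other enzymes. In the heart the aspartate aminotransferases are abundant, since they carry the amino group steps of the malate-aspartate shuttle, which brings the electrons of cytosolic NADH into mitochondria.

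The libraries held between 35218541 and 47743376 counts. Mitochondrial rRNA took 44.0% to 46.9% of the counts in wildtype and 65.6% to 67.8% in knockout libraries. Values below are normalised counts, which are expected counts scaled to a common depth by the median-of-ratios method with a correction for effective gene length, unless a level per kilobase is named. Lrpprc, the targeted gene, had 3424 to 3946 normalised counts in the 4 wildtype libraries and 504 to 605 in the 4 knockout libraries, a log2 fold change of -2.67 ± 0.10 (SE, n = 4 per group). It fell by DESeq2's Wald test (adjusted p = 3.77e-153). Of 8 cardiomyocyte markers, 7 fell and 0 rose, of 8 fibroblast markers 4 rose, of 8 macrophage markers 6 rose, and of 8 smooth muscle and pericyte markers 2 fell, beside 18.2% of all genes that rose and 15.5% that fell. Of 8 endothelial, 6 erythroid and 6 adipocyte markers 0 were called, and of 6 hepatocyte markers 1 rose. Knockout replicate 3 stood apart among the knockout libraries, with a fibroblast marker sum of 19212 against 33050 to 64280 in the others, and a macrophage marker sum of 4818, within the 4445 to 6037 of wildtype. Without it, 8 cardiomyocyte markers fell, 5 fibroblast and 8 macrophage markers rose, 4 smooth muscle and pericyte markers fell and 2 endothelial markers rose. In that fit 0 hepatocyte markers were called. Results whose call or direction it decides, or in which it is far from the other libraries, are given with and without it. In RNA from whole hearts, fewer cells of a type and less RNA per cell cannot be told apart. Where 4 values are given for a group, they follow the replicate numbers 1 to 4.

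The promoters of the enzymes were searched for the letters TGATGNAA, the core of the elements to which the stress-responsive factor ATF4 is known to bind with C/EBP partners. They were read on both strands in windows from 250 bases before to 50 bases after the RefSeq start. Of the 8 enzymes, 3 held a match, namely Asns, Pycr1 and Got1, and 3.97% of 32851 windows of the same length held one, or 4.51% of 27025 genes. Of 45 other genes of these pathways with a window, 0 held a match. The letters TGACGTCA, the full cAMP response element, which shares no complete match with the other motif, were found in 0 of the 8 enzymes, in 1 of the 45 other pathway genes, Mdh2, and in 1.79% of all windows. The 250 bases before the start of the 3 genes are shown because they hold the matches, which are in capitals. All 3 genes lie on the minus strand of GRCm38.p6, and the sequences are those of RefSeq, read in the direction of the gene.
Asns, chr6:7693210-7693459: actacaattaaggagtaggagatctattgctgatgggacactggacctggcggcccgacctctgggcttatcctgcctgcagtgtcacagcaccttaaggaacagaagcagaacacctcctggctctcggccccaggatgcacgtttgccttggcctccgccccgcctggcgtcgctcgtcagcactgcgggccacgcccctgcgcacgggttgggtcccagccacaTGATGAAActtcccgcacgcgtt
Pycr1, chr11:120643749-120643998: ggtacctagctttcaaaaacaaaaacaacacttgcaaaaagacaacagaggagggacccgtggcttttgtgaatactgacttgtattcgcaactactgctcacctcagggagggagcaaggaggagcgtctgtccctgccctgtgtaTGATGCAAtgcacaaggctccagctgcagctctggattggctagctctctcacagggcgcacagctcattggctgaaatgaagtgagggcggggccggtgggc
Got1, chr19:43524606-43524855: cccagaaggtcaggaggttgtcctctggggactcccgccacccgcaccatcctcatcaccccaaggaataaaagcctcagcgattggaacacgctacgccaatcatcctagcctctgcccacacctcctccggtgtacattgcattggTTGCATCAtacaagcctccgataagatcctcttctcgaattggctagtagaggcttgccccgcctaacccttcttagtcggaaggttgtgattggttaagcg
The match began 23 bases before the start in Asns and 103 bases before it in Pycr1, both on the strand of the gene. In Got1 it began 102 bases before the start and lay on the opposite strand. These matches describe the letters only.

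Of the 8 enzymes, 5 had an adjusted p under 0.05, and all 5 were higher in the knockout. Over all 19959 genes with an adjusted p, 33.7% were called, 18.2% higher and 15.5% lower, and nothing is read from the members' count because the members were chosen on this contrast. The members' count changed with the processing. It was 5 higher and 2 lower with total counts and without knockout replicate 3, and 7 higher and 0 lower with total counts that leave out mitochondrial rRNA. It was 5 higher and 1 lower without knockout replicate 2, with a replicate block, with the low-count filter and without the length offset. The median log2 fold change over the 8 enzymes was 0.91, against 0.01 over all genes with an adjusted p. In 5 of the enzymes, Asns, Pycr1, Aldh18a1, Glul and Got1, every knockout library lay above every wildtype library. The same held for 19.8% of 15754 genes whose mean normalised count reached 10, and nothing is read from the members' count here either. In the proline-degrading Prodh and the mitochondrial Got2 and Gpt2 the libraries of the groups overlapped.

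**Figure D1:**
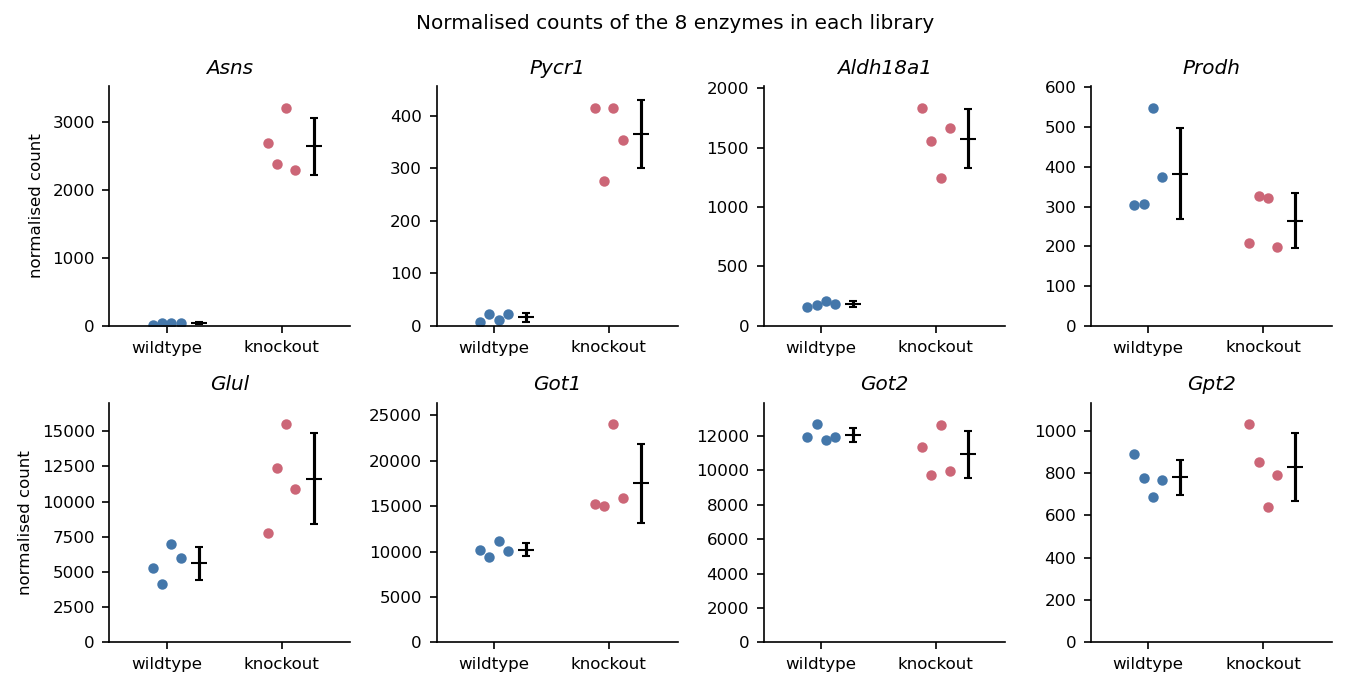
Normalised counts (vertical axes, each starting at 0) of the 8 enzymes in the 4 wildtype (blue) and 4 knockout (red) libraries, with a black bar for the mean and SD beside each group. The knockout points of Asns, Pycr1, Aldh18a1, Glul and Got1 all lie above the wildtype points, and those of Prodh, Got2 and Gpt2 overlap them. Among genes whose mean count reached 10, 19.8% have every knockout point above every wildtype point.

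Asns encodes asparagine synthetase, which makes asparagine by moving an amide group from glutamine to aspartate. It lies on chromosome 6 from 7675169 to 7693254 (GRCm38, minus strand). The wildtype libraries had 18.8, 37.9, 49.1 and 47.4 normalised counts, and the knockout libraries had 2690.0, 2380.3, 3209 and 2289. The lowest knockout library was far above the highest wildtype library. The mean was 38.3 ± 13.9 (SD, n = 4) in wildtype and 2642 ± 415 (SD, n = 4) in knockout, a log2 fold change of 6.11 ± 0.23 (SE), or 69.0-fold. The effective length of Asns, which RSEM estimates from the mix of transcripts, was 1208 to 1833 bases in wildtype and 1781 to 1826 bases in knockout, with few wildtype reads behind it.

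Other enzymes of asparagine and aspartate had smaller fold changes than Asns. Of 10 genes listed, 10 had an adjusted p, of which 5 rose and 2 fell (DESeq2), with a median log2 fold change of 0.38. That is 70% called, beside 33.7% of all genes. Leaving out wildtype replicate 1 or 4 or knockout replicate 2 or 4 left 3 higher and 1 lower. Asnsd1, a gene with an asparagine synthetase domain, rose by 0.27 ± 0.11 (SE) on the log2 scale from 1002 to 1043 counts in wildtype to 1108 to 1445 in knockout (DESeq2, adjusted p = 0.038). That call was lost without any 1 of 7 libraries, under the replicate block, with the low-count filter (adjusted p = 0.113) and with total counts, where the value was -0.03. Knockout replicate 3 is among the 7, and without it the value was 0.18 (DESeq2, adjusted p = 0.0599). Asrgl1, an asparaginase, had 671 to 909 counts in wildtype and 691, 767, 1408 and 714 in knockout replicates 1 to 4, a log2 fold change of 0.21 ± 0.23 (SE) (DESeq2, adjusted p = 0.529). Without knockout replicate 3 its log2 fold change was -0.10. Adssl1, the muscle form of adenylosuccinate synthase, which joins aspartate to inosine monophosphate, rose from 903 to 978 counts to 2355 to 3376, a log2 fold change of 1.49 ± 0.14 (SE) (DESeq2, adjusted p = 5.27e-26), and it was 1.35 without knockout replicate 3. Ass1, argininosuccinate synthase, which uses aspartate, rose by 1.06 ± 0.26 (SE) (DESeq2, adjusted p = 0.000398). Nat8l, which acetylates aspartate, fell by 1.58 on the log2 scale, with 25.2 to 50.7 counts in wildtype and 6.92 to 16.7 in knockout (DESeq2, adjusted p = 0.00179).

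Pycr1 and Aldh18a1 encode the enzymes that carry glutamate to proline. Aldh18a1, pyrroline-5-carboxylate synthase, lies on chromosome 19 from 40550257 to 40588463 (minus strand) and makes the pyrroline-5-carboxylate. Its wildtype libraries had 157, 178, 212 and 186 counts, and its knockout libraries had 1835, 1555, 1246 and 1663. No library of either group came near the other group. The mean was 183 ± 22.9 (SD, n = 4) in wildtype and 1575 ± 248 (SD, n = 4) in knockout, a log2 fold change of 3.10 ± 0.16 (SE), or 8.57-fold.

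Pycr1, a mitochondrial pyrroline-5-carboxylate reductase, lies on chromosome 11 from 120635712 to 120643769 (minus strand) and completes proline. Wildtype hearts held 6.54, 23.4, 12.1 and 23.5 counts of it, and knockout hearts 416, 277, 415 and 355. The wildtype values are few counts, and the knockout values were all above them. The log2 fold change was 4.45 ± 0.29 (SE), or 21.9-fold.

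Pycr3, the cytosolic reductase, had 88.1 to 137 counts in wildtype and 105 to 178 in knockout. Its log2 fold change was 0.28, with a 95% interval of -0.19 to 0.75, and it did not pass the test (DESeq2, adjusted p = 0.40).

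Prodh encodes proline dehydrogenase, a mitochondrial enzyme that takes the first step of proline breakdown. It lies on chromosome 16 from 18060357 to 18090203 (minus strand). The wildtype libraries had 305, 306, 549 and 373 counts and the knockout libraries 209, 327, 321 and 199. The groups overlapped, and wildtype replicate 3 was the highest of all 8 libraries. The log2 fold change was -0.54 ± 0.24 (SE), with a 95% interval of -1.02 to -0.06, which is given as a description. It was -0.32 without wildtype replicate 3, -0.65 without knockout replicate 3 and -0.66 without knockout replicate 2. With total counts it was -0.84, and with total counts that leave out mitochondrial rRNA it was -0.12.

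Aldh4a1 encodes the dehydrogenase that takes the second step of proline breakdown, from pyrroline-5-carboxylate to glutamate. It was not among the 8 enzymes, and it fell. Wildtype hearts held 1672, 1797, 1631 and 1709 counts of it and knockout hearts 706, 639, 563 and 571, a log2 fold change of -1.46 ± 0.11 (SE) (DESeq2, adjusted p = 2.65e-41). The groups were well apart. Per kilobase, Aldh18a1 stood at 0.110 ± 0.0163 (SD, n = 4) times the level of Aldh4a1 in wildtype and at 2.58 ± 0.298 times (SD, n = 4) in knockout. Oat, ornithine aminotransferase, which links ornithine with pyrroline-5-carboxylate, fell from 2795 to 2932 counts to 2071 to 2239, a log2 fold change of -0.40 ± 0.07 (SE) (DESeq2, adjusted p = 7.49e-08). With total counts that leave out mitochondrial rRNA, Oat was at 0.03.

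Of 9 genes listed for proline and ornithine, 8 had an adjusted p, of which 2 rose and 2 fell (DESeq2), with a median log2 fold change of 0.29. That is 50% called, beside 33.7% of all genes. The split was 1 higher and 3 lower with total counts. It was 4 higher and 1 lower with total counts that leave out mitochondrial rRNA. Odc1, ornithine decarboxylase, the first enzyme of polyamine synthesis, rose from 856 to 939 counts to 1921 to 2541, a log2 fold change of 1.30 ± 0.11 (SE) (DESeq2, adjusted p = 1.03e-28). Prodh2, a liver and kidney hydroxyproline dehydrogenase, stayed under 9 counts in every library and did not pass the test (DESeq2, adjusted p = 0.258).

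Glul encodes glutamine synthetase, which joins ammonia to glutamate. It lies on chromosome 1 from 153899944 to 153909723 (plus strand). The wildtype libraries had 5277, 4183, 6996 and 5998 counts and the knockout libraries 7752, 12401, 15492 and 10879. The lowest knockout library, replicate 1, was just above the highest wildtype library. The log2 fold change was 1.05 ± 0.22 (SE), or 2.07-fold, and it was 0.88 without knockout replicate 3. A processed pseudogene, Glns-ps1, is 96.8% identical to Glul over 1126 bases, and it took under 0.01% of the counts of the gene and the copy together.

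The fold changes of a glutaminase and of the dehydrogenase that use the same amino acids did not pass the test. Gls2, the liver glutaminase, stayed under 15 counts in every library, with a log2 fold change of 0.41 ± 0.61 (SE) (DESeq2, adjusted p = 0.655). Glud1, glutamate dehydrogenase, had 1677 to 2097 counts in wildtype and 1633 to 2444 in knockout, a log2 fold change of 0.08 with a 95% interval of -0.22 to 0.38 (DESeq2, adjusted p = 0.734).

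Of 11 genes listed for glutamate and glutamine, 9 had an adjusted p, of which 2 rose and 2 fell (DESeq2), with a median log2 fold change of 0.08. That is 44.4% called, beside 33.7% of all genes. Gclm and Gclc, the subunits of glutamate-cysteine ligase, which starts glutathione synthesis, rose by 1.58 ± 0.26 (SE) and 1.16 ± 0.16 (SE) on the log2 scale (DESeq2, adjusted p = 1.78e-08 and 2.77e-11), and were at 1.32 and 1.04 without knockout replicate 3. Abat, the transaminase that breaks down GABA, fell from 293 to 461 counts to 86.8 to 209, a log2 fold change of -1.62 ± 0.28 (SE) (DESeq2, adjusted p = 8.05e-08). Without the length offset it was at -2.24. Of 10 genes listed as glutamine amidotransferases, most of which take the amide nitrogen of glutamine (Cps1, also listed, uses free ammonia), 3 rose and 0 fell (DESeq2), with a median log2 fold change of 0.24, and this share of 30.0% is near the 33.7% called over all genes. Ctps, a CTP synthase, rose from 631 to 680 counts to 1179 to 1612, a log2 fold change of 1.16 ± 0.12 (SE) (DESeq2, adjusted p = 9.54e-20). Cad, which starts pyrimidine synthesis, and Ctps2, a second CTP synthase, were near the threshold at 0.58 and 0.48 (DESeq2, adjusted p = 0.0308 for both), and their groups overlapped. Leaving out wildtype replicate 1, 3 or 4 or knockout replicate 4 ended both calls and left 1 of the 10. The call of Ctps2 was also lost without knockout replicate 3 (DESeq2, adjusted p = 0.0735), without knockout replicate 2 (DESeq2, adjusted p = 0.0507) and with the low-count filter (DESeq2, adjusted p = 0.0574). The call of Cad was also lost without knockout replicate 1 (DESeq2, adjusted p = 0.0542). Total counts and the replicate block ended both calls. Without the length offset Cad was at 0.06 (DESeq2, adjusted p = 0.859), and with edgeR its call was also lost (adjusted p = 0.0586).

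Got1 and Got2 encode the aspartate aminotransferases of the cytosol and of mitochondria. Got1, on chromosome 19 from 43499752 to 43524605 (minus strand), had 10219, 9387, 11196 and 10115 counts in wildtype hearts and 15247, 14974, 24027 and 15947 in knockout hearts. Every knockout library was above every wildtype library, and knockout replicate 3 was far above the other knockout libraries. The log2 fold change was 0.78 ± 0.16 (SE), or 1.72-fold, and it was 0.59 without that library. The effective length of Got1 was 1772 to 1843 bases in wildtype and 1845 to 1864 in knockout, without overlap. Without the length offset the log2 fold change was 0.83.

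Got2, on chromosome 8 from 95864134 to 95888547 (minus strand), had 11946, 12680, 11747 and 11943 counts in wildtype hearts and 11377, 9734, 12667 and 9986 in knockout hearts. The groups overlapped because knockout replicate 3 was as high as the highest wildtype library. The log2 fold change was -0.14 ± 0.11 (SE), with a 95% interval of -0.35 to 0.07, and it was -0.22 without knockout replicate 3. Per kilobase, Got1 made up 52.1 ± 2.58% (SD, n = 4) of both aspartate aminotransferases in wildtype and 67.0 ± 3.14% (SD, n = 4) in knockout, and the lowest knockout library, at 63.3%, was above the highest wildtype library, at 55.1%. The copies of Got2 with a count, Gm10874 and Gm45760, took at most 0.0589% of the counts of the gene and a copy.

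Of the 5 other listed partners of the malate-aspartate shuttle, 0 rose and 2 fell (DESeq2), with a median log2 fold change of -0.17. This share of 40% is near the 33.7% called over all genes. Mdh1, the cytosolic malate dehydrogenase, fell from 25492 to 26879 counts to 18226 to 22480, a log2 fold change of -0.38 ± 0.09 (SE) (DESeq2, adjusted p = 0.000429). Slc25a11, the carrier that exchanges malate for oxoglutarate, fell by 0.40 (DESeq2, adjusted p = 0.00149). With total counts that leave out mitochondrial rRNA these values were 0.04 and 0.02, and 2 of the 5 partners were called higher and 0 lower. Without knockout replicate 3, 4 of the 5 partners fell, and over all genes 3722 rose and 3300 fell in that fit. The cardiomyocyte marker sum was 1043546 to 1159295 in wildtype and 494354 to 649048 in knockout, and its part in these values was not tested.

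Gpt2 encodes the mitochondrial alanine aminotransferase and lies on chromosome 8 from 85492576 to 85527560 (plus strand). It had 890, 777, 688 and 766 counts in wildtype hearts and 1031, 853, 641 and 791 in knockout hearts. The groups overlapped widely. The log2 fold change was 0.09 ± 0.16 (SE), with a 95% interval of -0.22 to 0.40. Its cytosolic counterpart Gpt, which was not among the 8 enzymes, fell from 336 to 437 counts to 118 to 165, a log2 fold change of -1.51 ± 0.16 (SE) (DESeq2, adjusted p = 3.15e-19). Per kilobase, Gpt2 made up 49.4 ± 2.88% (SD, n = 4) of both alanine aminotransferases in wildtype and 74.4 ± 4.41% (SD, n = 4) in knockout.

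**Figure D2:**
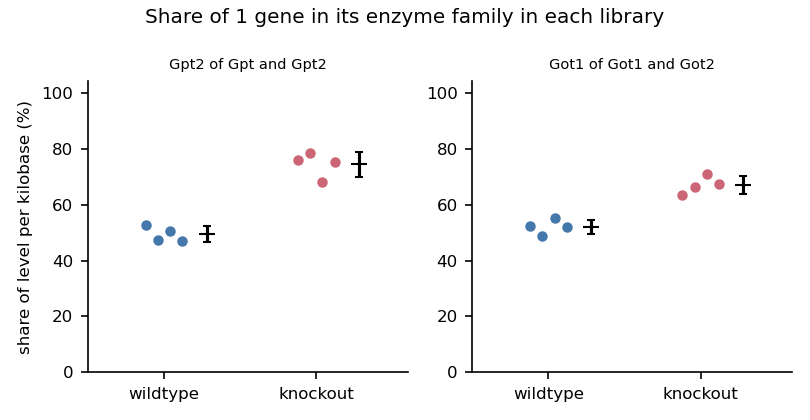
Share (vertical axes, percent of the summed level per kilobase of effective length) of Gpt2 in both alanine aminotransferases and of Got1 in both aspartate aminotransferases in each of the 4 wildtype (blue) and 4 knockout (red) libraries, with the mean and SD as black bars. In both pairs all knockout points lie above all wildtype points.

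Of 13 other aminotransferases, 7 had an adjusted p, of which 2 rose and 3 fell (DESeq2), with a median log2 fold change of -0.35. The falls were 1 with the replicate block and without wildtype replicate 2 or 4 or knockout replicate 1 or 4. With total counts that leave out mitochondrial rRNA, 3 rose and 1 fell. Psat1, phosphoserine aminotransferase, which uses glutamate in serine synthesis, rose from 36.9 to 45.5 counts in wildtype to 726, 727, 2096 and 939 in knockout replicates 1 to 4, a log2 fold change of 4.82 ± 0.33 (SE) (DESeq2, adjusted p = 1.44e-45). Without knockout replicate 3 it was 4.33. Bcat1, the cytosolic branched-chain aminotransferase, rose from 19.6 to 38.1 counts to 253 to 294, a log2 fold change of 3.43 ± 0.22 (SE) (DESeq2, adjusted p = 3.65e-52). Over the 58 other genes listed for these pathways, 49 had an adjusted p, of which 14 rose and 11 fell (DESeq2), or 51.0% called, beside 33.7% of all genes. Since the lists were chosen with results known, and the shares run from 30.0% of the amidotransferases to 71.4% of the other aminotransferases, nothing is read from them about the lists. Without knockout replicate 3, the calls were 4 higher and 1 lower for asparagine and aspartate, 2 higher and 3 lower for glutamate and glutamine, and 2 higher and 4 lower for the other aminotransferases.

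**Figure D3:**
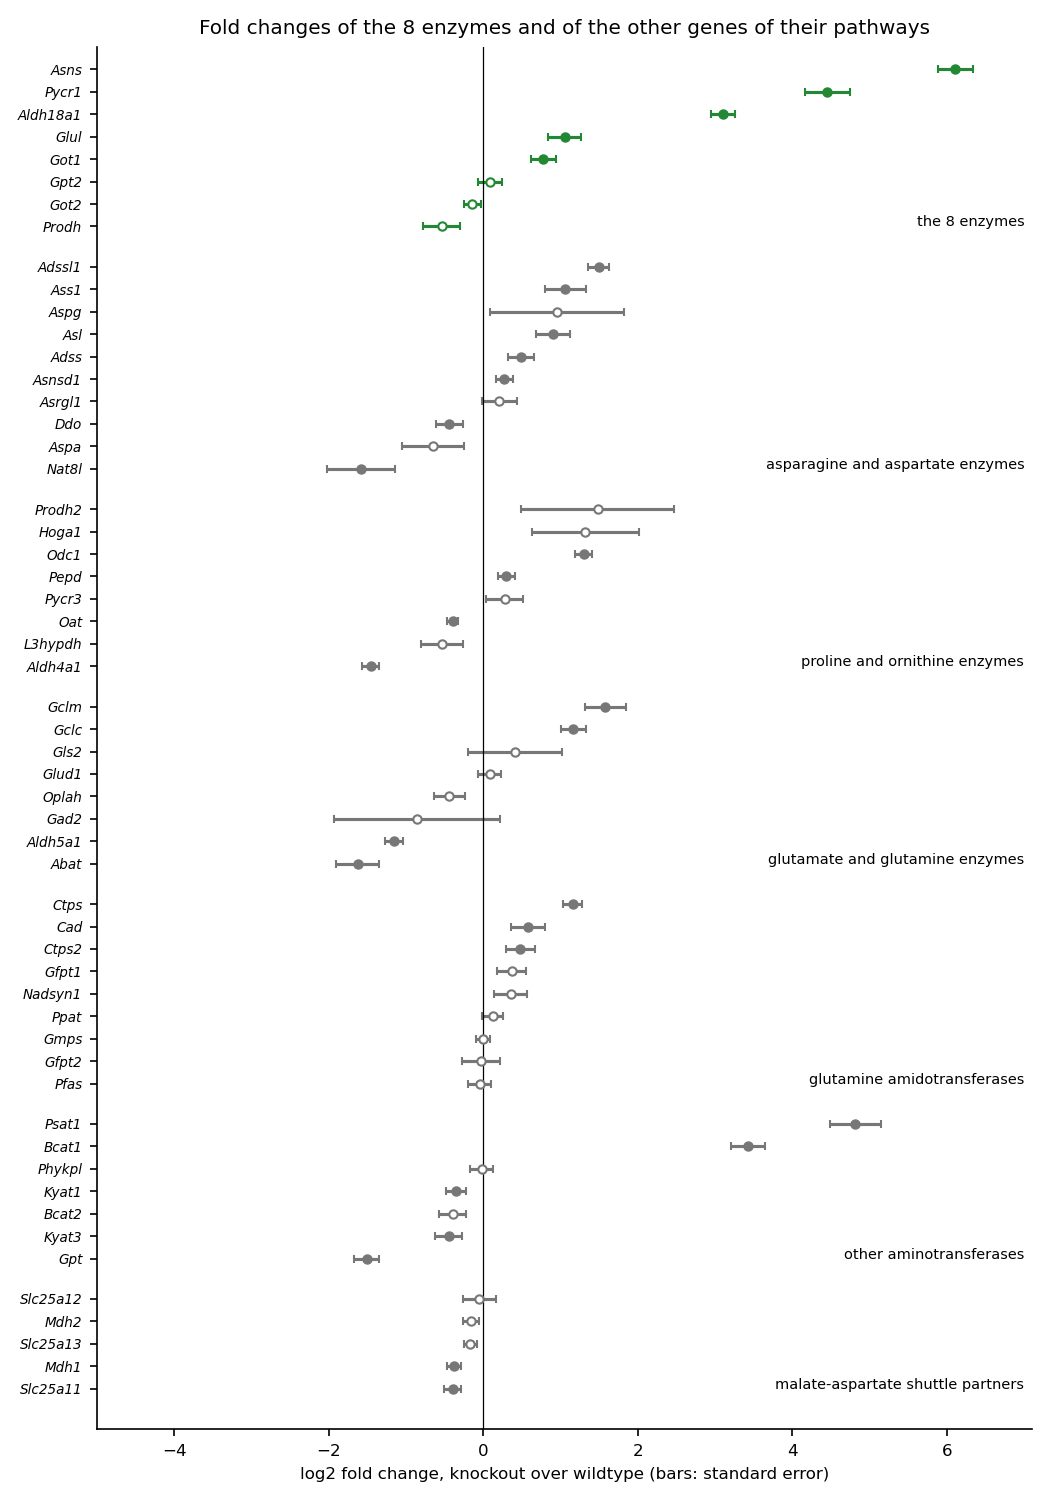
Log2 fold changes of knockout over wildtype (horizontal axis, bars for the standard error) of the 8 enzymes (green) and of the other genes of their pathways (grey), with filled points for genes with an adjusted p under 0.05. Genes at 3 counts or fewer in every wildtype library are left out. Asns, at 6.11, is farthest to the right, and Aldh4a1, Gpt, Nat8l and Abat lie near -1.5.

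Levels of different genes were compared per kilobase of effective length. In wildtype hearts the order was Got1 at 5561 ± 404 (SD, n = 4), Got2 at 5109 ± 174, Glul at 2456 ± 519, Gpt2 at 246 ± 26.2, Prodh at 227 ± 68.1, Aldh18a1 at 58.0 ± 7.27, Asns at 23.4 ± 8.48 and Pycr1 at 9.35 ± 4.84 depth-scaled counts per kilobase. The ranges of Got1 and Got2, of Gpt2 and Prodh, and of Asns and Pycr1 overlapped over the 4 libraries. In knockout hearts Got1 stood at 9541 ± 2359 (SD, n = 4), Glul at 5090 ± 1409, Got2 at 4627 ± 575, Asns at 1611 ± 253, Aldh18a1 at 499 ± 78.4, Gpt2 at 261 ± 50.7, Pycr1 at 208 ± 37.3 and Prodh at 157 ± 41.0 per kilobase. There the neighbours Glul and Got2, Gpt2 and Pycr1, and Pycr1 and Prodh overlapped. Asns was thus the seventh of the 8 in wildtype and the fourth in knockout.

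Genes with the most similar profile were found as the smallest root mean square difference of log2 values, each taken relative to its wildtype mean, over the 8 libraries and 10439 genes with a mean of at least 100 counts. Genes that are low in wildtype reach that mean only through the knockout, as the 3 nearest to Asns and those nearest to Pycr1 and Aldh18a1 do, and for an enzyme with a large fold change the distance depends on the size of that change. For Asns they were Phgdh at 0.479, Mthfd2 at 0.496 and Slc7a3 at 0.705. Phgdh starts serine synthesis, Mthfd2 is a mitochondrial folate enzyme, and Slc7a3 is a carrier of cationic amino acids. For Aldh18a1 it was Slc1a4, a carrier of neutral amino acids, at 0.145. The nearest to Pycr1 was Shisa3 at 0.348, to Glul the transporter Abcg2 at 0.124, and to Got1 the proteasome subunit Psmd4 at 0.0390. Prodh was nearest to Thrsp at 0.189, Got2 to Snrpe at 0.0336 and Gpt2 to Krba1 at 0.0817.

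The way libraries are scaled moves all genes together, and the share of mitochondrial rRNA differed between the groups. Scaling by total counts shifted the median of 15754 genes by -0.30 on the log2 scale, and total counts without mitochondrial rRNA shifted it by 0.43. The calls over all genes were then 1924 higher and 5912 lower, and 7950 higher and 1111 lower, against 3628 and 3100. Asns, Pycr1, Aldh18a1, Glul and Got1 were higher in the knockout under all 3 scalings. Got2 was at -0.14, -0.45 and 0.28 and Gpt2 at 0.09, -0.20 and 0.52 under median-of-ratios, total counts and total counts without mitochondrial rRNA. Relative to the median gene the values were nearly the same under the 3 scalings, between -0.17 and -0.16 for Got2 and 0.07 for Gpt2.

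**Figure D4:**
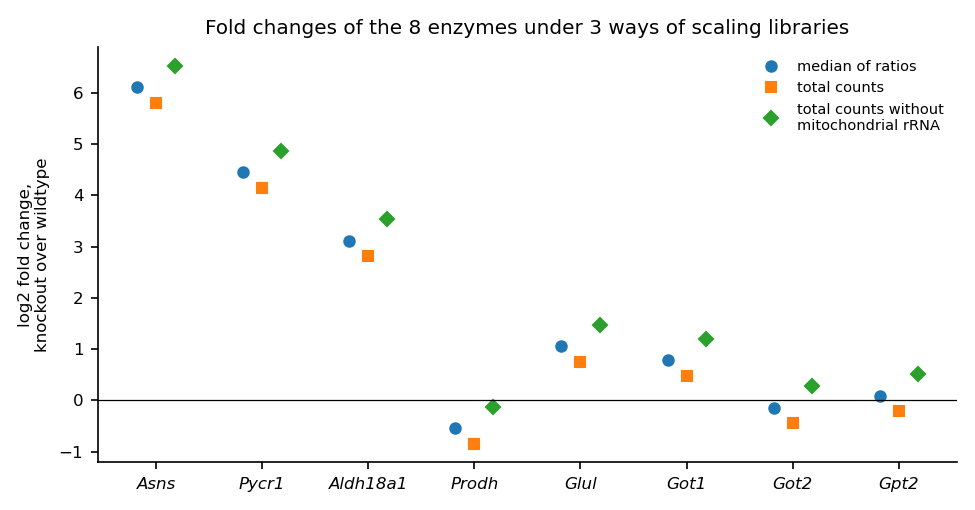
Log2 fold changes of knockout over wildtype (vertical axis) of the 8 enzymes under 3 ways of scaling the libraries (circles, squares and diamonds). Got2 and Gpt2 lie on both sides of 0 depending on the scaling, and Asns lies between 5.80 and 6.52.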

How the data were processed

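The authors aligned paired-end, reverse-stranded reads with RSEM 1.2.31 and Bowtie2 to GENCODE mouse transcripts (mm10). The deposited expected counts per gene need not be whole and were rounded here. The deposited TPM values by the authors served only as an alternative for levels. The deposited effective length, in bases, was used as an offset per gene. The authors' table of fold changes and p-values was not used, nor were 8 columns of normalised counts whose names match no label.

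DESeq2 1.42.0 (R 4.3.3) was fitted to all genes with genotype as the only term, without shrinkage, with Benjamini-Hochberg adjustment over the 19959 genes that passed DESeq2's own filter on low means and outlying counts (threshold 0.05). Levels per kilobase are expected counts divided by the size factor of the library and by effective length, without the length correction of the normalised counts. GENCODE M21 gave symbols and GRCm38 coordinates. Copies were found by blastn 2.17.0 (identity of at least 90% over 150 bases). Floors (3 counts) cover counting error only.

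The genes named were the 8 enzymes, fixed counterparts, the 3 largest called changes of each list, and genes of the most similar profile (mean of at least 100 counts, pseudocount 1). Some genes of these pathways are not reported here and were left out of the lists and counts. Members and lists were chosen with earlier results of these data known. As alternatives, the fit was run with edgeR 4.0.16 (TMM), without the length offset, with a low-count filter (10 counts in 4 libraries), other scalings, a replicate block and leaving out each library. The fit was tested on a simulated draw with a constant gene length and far fewer changed genes than were called here. In that draw the share of unchanged genes among the calls was well above the threshold for DESeq2 and just below it for edgeR. That share depends on how many genes change, so its size does not carry over to these data. DESeq2 calls near the threshold are best read with caution.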

Additional observations from a re-analysis of the deposited data

Results flagged for a closer look

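A library was far from the other three of its group, by Dixon's test, in 8 of 68 groups tested, and chance alone flags about 1 in 20 of such groups, or 3.4 here. In knockout replicate 3, Got1 had 24027 normalised counts against 14974 to 15947 in the others, Asrgl1 had 1408 against 691 to 767, Adssl1 had 3376 against 2355 to 2510 and Psat1 had 2096 against 726 to 939. In other knockout libraries, Abat had 209 counts in replicate 4 and Lrpprc had 504 in replicate 2. In wildtype, Prodh2 had 4.19 counts and Asnsd1 had 1043 in replicate 3. The cause was not tested.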

How the results depend on the processing

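Over the alternatives run, log2 fold changes lay between 5.80 and 6.52 for Asns, 4.15 and 4.87 for Pycr1, 2.81 and 3.53 for Aldh18a1, 0.75 and 1.47 for Glul and 0.47 and 1.19 for Got1, as a description. With the replicate block, 1 amidotransferase and 3 other aminotransferases were called, and 5525 genes in all. Same-numbered libraries correlated between -0.05 and 0.09, and 1 of 4 correlated best with its own number. These small values show no sign that the replicate numbers pair the libraries, and they cannot exclude it. Total counts without mitochondrial rRNA called 8 amidotransferases, and total-count scaling called 4 shuttle partners. Leaving out 1 library gave 4 to 7 calls for asparagine and aspartate, 1 to 3 for amidotransferases, 3 to 6 for other aminotransferases and 2 to 4 for the shuttle. Without division by length the share of Gpt2 rose by 19.7 percentage points in place of 24.9. Log2 fold changes that turned sign were, with total counts, Gpt2 at -0.20, Pycr3 at -0.021, Glud1 at -0.22, Asnsd1 at -0.028 and Asrgl1 at -0.11. With total counts without mitochondrial rRNA they were Got2 at 0.28, Oat at 0.031, Slc25a11 at 0.021 and Mdh1 at 0.043. Leaving out 1 library gave -0.033 (without knockout replicate 1) to 0.192 for Gpt2, and, with the lowest values without knockout replicate 3, -0.047 to 0.159 for Glud1 and -0.096 to 0.316 for Asrgl1. Summing the near-identical copies, an alternative chosen after seeing the data, left Got2 at -0.14 and Gpt2 at 0.09. The shift of all genes with the scaling is by construction, and other causes were not tested. Wildtype counts of Asns and Pycr1 are low, which limits the precision of their fold changes.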
